A study of Pantherophis guttatus with 6 samples.

Results

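The genes along the scaffold of *TYR*, the tyrosinase gene, were described here in the dorsal skin of hypomelanistic and wild-type corn snake (*Pantherophis guttatus*) embryos. A gene was a member if the first position listed for it in the count table lay on scaffold NW_026844016.1 of the CU assembly. *TYR* itself, 7 genes near it (*SYTL2*, *SYTL2-like*, *RAB38*, *CTSC*, *FZD4*, *FOLH1-like* and *NAALAD2-like*) and the matrix metalloproteinase and collagen genes were left out, so the description covers the other genes of the scaffold. This gave 561 members of the 25731 genes in the table, and 19 of the 580 genes of the scaffold were left out. The groups were 3 homozygous hypomelanistic embryos and 3 wild-type embryos, all at embryonic day 40. According to the study's methods, the embryos were siblings of a single clutch whose parents were both heterozygous, and each was genotyped with variants flanking the mapped interval around *TYR*. Each library is a separate embryo, and the labels name no treatment.

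Hypomelanistic corn snakes carry less melanin, and the trait is recessive. Genes on the same chromosome are inherited together unless a crossover separates them, and this linkage weakens with distance. Siblings selected for the same genotype at 1 locus therefore tend to share the nearby haplotypes as well. The question here was whether the other genes on the scaffold of *TYR* also differed between the genotypes, and how far from *TYR*. Since the embryos were grouped by their genotype on this scaffold, a difference in transcript level and a difference in how reads from the 2 haplotypes align to the reference genome cannot be told apart.

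The primers are shown because the genotypes they read set the groups that every comparison here rests on. They read the edges of the mapped interval, and how far from it the embryos of a group share a haplotype was not tested. The study used them to amplify and sequence fragments that hold fixed variants near the edges of its interval. They are printed from 5′ to 3′, without capitals because no base within them is singled out, and their positions were not looked up here. The pairs are in the order in which the study lists them:
First pair, forward: tacccggtcatctgtgcaaa
First pair, reverse: ggggccaactgttttctcaa
Second pair, forward: cgttggcagagaaactcagc
Second pair, reverse: cagatctacccctgccatgg

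The members spanned positions 163477 to 47398023 of the scaffold, and *TYR* lay near one end, at positions 3163719 to 3235830. Hence 21 members preceded *TYR*, by up to 3.00 Mb (megabases), and 540 followed it, by up to 44.2 Mb. In the annotation of a newer corn snake assembly, 500 members were found, 495 of them on chromosome 5. After a filter on low counts, 366 members were tested, 19 before and 347 after *TYR*. The other 195 had at most 53 counts over the 6 libraries, and 66 of them had none. By the newer annotation, 330 tested members encoded proteins and 12 were long non-coding RNAs. The exons of 50 tested members overlapped those of another gene of the scaffold, which makes their values uncertain, as the sources used here do not give the strand setting of featureCounts.

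Total counts ranged from 29958657 to 38541392 per library. *TYR* averaged 4.97 ± 0.178 CPM (the count scaled to the effective library size; SD, n = 3) in hypomelanistic embryos and 37.2 ± 4.66 CPM (SD, n = 3) in wild-type embryos, with an edgeR adjusted p of 0.000415. Library hypomelanistic 1 stood apart on 4 of the 5 scaffolds placed on chromosome 4, where its median gene lay 0.52 to 0.67 above the mean of the 6 libraries on the log2 scale. It also had the most extreme first principal component of genes outside the scaffold (−31.5, against −0.229 to 19.8 in the other libraries). It also stood apart on a scaffold placed on chromosome 17, at 0.34, against −0.08 to −0.01 in the other libraries. The study names sex as the main factor that separates these embryos in its principal component analysis. The labels give no sex, and the part of sex in the results here was not tested. Ribosomal RNA genes took 10.2%, 11.7% and 13.4% of counts in hypomelanistic embryos, and 7.37%, 7.48% and 8.80% in wild-type embryos. All 6 fibroblast markers, all 5 melanophore markers and the 3 keratinocyte markers found were detected, whereas the summed brain markers and the summed liver markers stayed below 1 CPM. The summed markers of melanophores were 1507 to 1762 CPM in hypomelanistic embryos and 1583 to 1775 CPM in wild-type embryos. Those of skeletal muscle varied widely within both groups, at 531 to 2107 CPM in hypomelanistic and 645 to 2509.7 CPM in wild-type embryos. Erythroid markers summed to 29.8 to 70.0 CPM in hypomelanistic and 28.6 to 90.1 CPM in wild-type embryos. The part of tissue content in the results here was not tested. In bulk skin, fewer cells of a type and less RNA per cell cannot be told apart.

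The members were more often lower than higher in hypomelanistic skin. Of the 366 tested members, 252 (68.9%) had a negative log2 fold change and 114 a positive one, beside 49% negative among all 17025 tested genes. On chromosomes 1, 2, 3, 6, 7 and 8 the share was 57.9%, and on chromosome 4, where library hypomelanistic 1 stood apart, it was 17.5%. Low shares were also found where that library did not stand apart. They were 33.5% and 36.6% on scaffolds placed on chromosome 10, 34.2% and 33.1% on chromosome 14, and 30.8% on chromosome 16. The median log2 fold change of the members was −0.09, beside 0.00 over all genes, and their median absolute log2 fold change was 0.16, beside 0.11. In the 3 hypomelanistic embryos the median member lay −0.06, 0.01 and −0.06 from its mean over the 6 libraries on the log2 scale, and in the 3 wild-type embryos 0.03, 0.08 and 0.05. Members took 1.06%, 1.07% and 1.03% of all counts in hypomelanistic embryos and 1.15%, 1.18% and 1.16% in wild-type embryos. Both measures were thus separate between the groups, by small amounts. For the medians this was not particular to the scaffold of *TYR*. A scaffold placed on chromosome 2 had medians of −0.07, 0.01 and −0.06 in hypomelanistic embryos, against 0.06, 0.03 and 0.09 in wild-type embryos. One placed on chromosome 8 had −0.09, 0.04 and 0.01 against 0.05, 0.05 and 0.07. All counts include those of ribosomal RNA genes, which took 10.2% to 13.4% in hypomelanistic and 7.37% to 8.8% in wild-type embryos. Their part in the difference in share was not tested. Protein-coding members had a median of −0.10, and 231 of 330 were lower. Of the 12 long non-coding members, 5 had negative values, and their median was 0.04.

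For 124 members (33.9%) the 3 hypomelanistic values did not overlap the 3 wild-type values, a pattern found in 12.2% of all tested genes. In 96 of these (26.2%) the hypomelanistic embryos were all lower, beside 6.39% of all tested genes, and in 28 (7.65%) they were all higher, beside 5.77%. The lean was also present among the 202 members with a mean of at least 10 CPM. Of these, 77 (38.1%) did not overlap, 65 of them lower, beside 13.5% of all genes at that level. Without hypomelanistic 1, 125 members were lower without overlap and 50 were higher (47.3% of 370), beside 22.6% of all genes, with a median log2 fold change of −0.08. With the left-out genes of the scaffold included, 133 of 380 genes (35.0%) did not overlap, and the median was −0.10. When the ribosomal RNA genes were left out, 123 members did not overlap and the median was −0.08. These counts carry no test, since genes on 1 scaffold of siblings are not independent.

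No single member passed the main test. By edgeR with Benjamini-Hochberg adjustment over all genes, 0 of 366 members had an adjusted p below 0.05, beside 0.0235% of all tested genes (0.0176% lower). That share includes genes of the scaffold that were left out. Of the 14 left-out genes that were tested, edgeR called 2 (*TYR* and *NAALAD2-like*) and DESeq2 called 7. The 0 therefore describes the members and not the whole scaffold. At an unadjusted p below 0.05 there were 84 members (23.0%), 67 lower and 17 higher, beside 5.63% of all tested genes (2.65% lower and 2.97% higher). DESeq2, the tool of the study, called 16 members at an adjusted p below 0.05 (4.37%), beside 0.488% of the same 17025 genes and 0.428% of the 19637 genes that DESeq2 adjusted. Of these 16, 13 were lower, beside 0.229% of all genes, and 3 were higher, beside 0.258%. The number of members called by DESeq2 depended on which embryos were used. It was 26 without hypomelanistic 1, 9 and 5 without hypomelanistic 2 and 3, and 8, 4 and 5 without wild-type 1, 2 and 3. The lncRNA LOC132710293, *DDX10* and *MTUS2* were called in all 6 of these fits, whereas *WASF3* was called in none of them (adjusted p 0.117 to 0.509). The other 12 lost the call in at least 3 of the 6 fits. *PROS1* was called in 3 fits, *VSTM5*, *TMEM123*, *CWF19L2*, *MTIF3*, *ALCAM*, *TRAT1-like* and *CRYBG3* in 2, and *TMEM126A-like*, *MSANTD4*, LOC117662982 and *ABHD10* in 1, so a call given for one of them holds for the 6 libraries together. The plot along the scaffold shows where the called members lie.

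**Figure D1:**
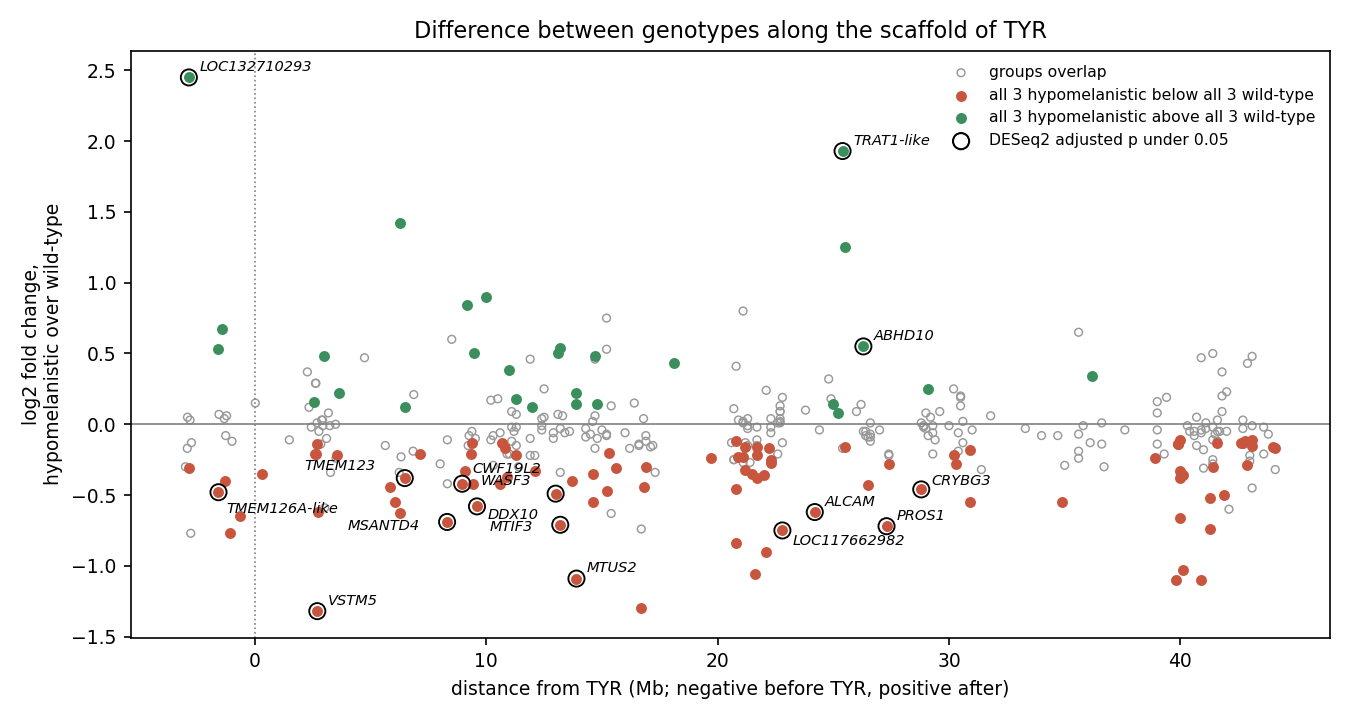
Log2 fold change (hypomelanistic over wild-type) of the 366 tested members against distance from *TYR* in Mb, negative before *TYR* and positive after it. Filled points mark the 96 lower and 28 higher members whose groups do not overlap, rings mark the 16 members called by DESeq2, and lower points are spread over the whole length.

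Members without overlap were found at every distance from *TYR*, also at 20 Mb or more. Within 2 Mb, 14 members were tested, a thin group, and 5 of them were lower and 2 higher without overlap. Their median log2 fold change was −0.10, but it was 0.02 without hypomelanistic 1, −0.01 without wild-type 1, 0.01 without wild-type 2 and −0.05 without wild-type 3, so no direction was given to it. *SYTL2*, *RAB38*, *CTSC*, *FOLH1-like* and *NAALAD2-like* also lie within 2 Mb but were left out. All of them were lower without overlap (log2 fold change −0.37 to −1.61), whereas the left-out *SYTL2-like* and *FZD4* overlapped. Metalloproteinase genes between 5 and 10 Mb were left out as well, so the values by distance describe the members only. Between 2 and 5 Mb, the median of 36 members was −0.02, and it was −0.08 without hypomelanistic 1, with 7 lower and 4 higher without overlap. The 30 members between 5 and 10 Mb had the lowest median, −0.20, and a median absolute log2 fold change of 0.33, and 12 of them (40.0%) were lower and 5 higher without overlap. The 90 members between 10 and 20 Mb and the 196 members at 20 Mb or more both had a median of −0.08. At 20 Mb or more, 53 members (27.0%) were still lower without overlap and 7 were higher. Across the 366 members, the absolute log2 fold change and the distance had a Spearman correlation of −0.122 and a Pearson correlation of −0.110. These describe genes measured in the same 6 libraries and are no test.

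**Figure D2:**
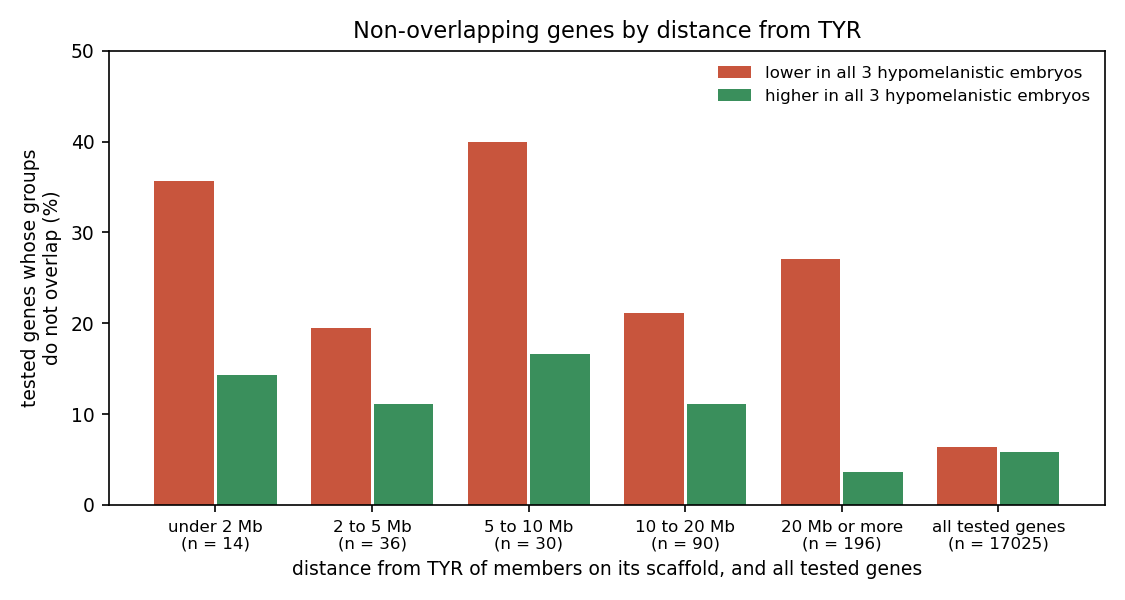
Percentage of tested genes whose groups do not overlap, lower (red) or higher (green) in all 3 hypomelanistic embryos, for members by distance from *TYR* and for all 17025 tested genes. The lower share lies above the 6.39% of all genes at every distance, while the higher share falls below the 5.77% of all genes at 20 Mb or more.

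Windows of 20 consecutive tested members gave the same description at a finer scale. In 17 of 18 windows at least 3 members were lower without overlap, a number reached in 16.4% of 746 windows on other scaffolds. In 10 windows at least 5 were, beside 3.49% of the other windows. The highest number, 10 of 20, came from the window between *ADAMTS1* and *URB1*, at 39.3 to 40.9 Mb, and the lowest, 2, from the window between *ROBO1* and *APP*. The window between LOC117662982 and *OX2-like*, at 22.8 to 26.5 Mb, went the other way, with 5 members higher and 4 lower without overlap and a median of 0.02. The median of the members, rounded to 2 decimals, was below 0 in 16 windows, and it was −0.00 in the window between *CPOX* and *NFKBIZ*. Of the windows elsewhere, 52.9% had a median below 0 before rounding. All 3 hypomelanistic medians lay below all 3 wild-type medians in 7 of the 18 windows, and in the other windows the embryos of the genotypes overlapped or lay in another order.

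**Figure D3:**
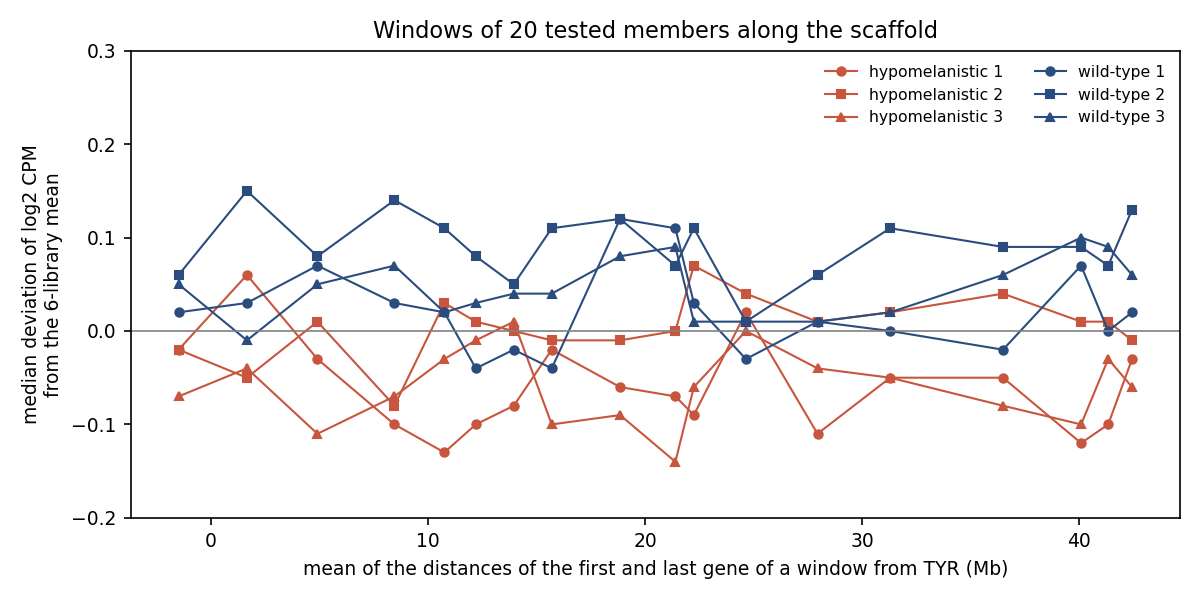
Median deviation of log2 CPM from the mean of the 6 libraries in each of 18 windows of 20 tested members, against distance from *TYR*, for each hypomelanistic (red) and wild-type (blue) embryo. The mean of the hypomelanistic lines is below that of the wild-type lines in 17 windows, and the lines of single embryos cross.

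The mapped interval around *TYR* held 10 members, of which 8 were expressed enough to be tested, and 6 of these had negative log2 fold changes. The median log2 fold change of the 8 was −0.24, and none was called by edgeR or DESeq2. The interval held 16 genes in all. Those that the study reports as differentially expressed (*TYR*, *CTSC*, *FOLH1-like* and *NAALAD2-like*) were left out here, so the absence of calls describes only the remaining genes. In 4 of the 8 tested members the groups did not overlap, all lower, beside 33.9% of all members and 12.2% of all tested genes. *EED* encodes a subunit of the Polycomb complex that methylates histone H3. It had 12, 11.1 and 11.5 CPM in hypomelanistic embryos, against 15.1, 14.5 and 15.9 CPM in wild-type embryos, with a log2 fold change of −0.40 ± 0.0906 (SE) and a DESeq2 adjusted p of 0.183. *CHORDC1*, which encodes a co-chaperone of Hsp90, had 21.6, 19.8 and 21.4 CPM in hypomelanistic embryos, against 25.9, 28.3 and 26.0 CPM in wild-type embryos (log2 fold change −0.35 ± 0.0785). Both genes were thus lower in every hypomelanistic embryo, at about the same relative size.

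*ME3* and *TMEM135* complete the 4 interval members without overlap. *ME3*, a mitochondrial malic enzyme, had 3.41, 4.09 and 3.36 CPM in hypomelanistic embryos, against 6.77, 7.26 and 4.54 CPM in wild-type embryos (log2 fold change −0.77 ± 0.209). *TMEM135*, a membrane protein of peroxisomes and mitochondria, had 1.69, 1.42 and 1.41 CPM in hypomelanistic embryos, against 2.08, 2.87 and 2.15 CPM in wild-type embryos. In *ME3*, 1 wild-type embryo lay closer to the hypomelanistic range than the other two. The adjusted p of both was 0.828 by edgeR.

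The other 4 tested interval members overlapped between the groups. *NOX4*, the NADPH oxidase nearest to *TYR* at a distance of 0.0210 Mb, was expressed at a low level, with 0.495, 0.409 and 0.731 CPM in hypomelanistic embryos and 0.490, 0.387 and 0.598 CPM in wild-type embryos. Its log2 fold change of 0.15 ± 0.345 had a wide error and changed sign without hypomelanistic 3 (−0.12), so no difference was detectable at this depth. *HIKESHI*, which carries Hsp70 into the nucleus, had a log2 fold change of −0.08 ± 0.10. That of *CCDC81* was 0.06 ± 0.105, and that of the serine protease *PRSS23* was −0.12 ± 0.139. *GRM5*, a glutamate receptor gene at 0.0631 Mb, had 19 counts in all and LOC117664105 had 0, and neither was tested.

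Before the interval, the largest change was that of LOC132710293, a long non-coding RNA gene 2.85 Mb from *TYR*, at positions 307115 to 313741. It had 1.02, 1.57 and 1.43 CPM in hypomelanistic embryos, against 0.231, 0.258 and 0.239 CPM in wild-type embryos. The ranges were far apart, and the log2 fold change was 2.45 ± 0.303, with an adjusted p of 0.116 by edgeR and 0.000314 by DESeq2. *RAB30*, a small GTPase of the Golgi encoded next to it on the other strand, went the opposite way, with 64.4, 71.6 and 78.3 CPM in hypomelanistic embryos against 90.9, 85.6 and 89.6 CPM in wild-type embryos (log2 fold change −0.31 ± 0.0814, DESeq2 adjusted p = 0.333).

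A pair of neighbors at 1.58 and 1.57 Mb before *TYR* also differed in direction. *DLG2*, a scaffold protein of synapses, had 15.4, 13.5 and 14.8 CPM in hypomelanistic embryos, against 11.5, 8.81 and 9.95 CPM in wild-type embryos (log2 fold change 0.53 ± 0.125, DESeq2 adjusted p = 0.101). *TMEM126A-like* is named after an assembly factor of mitochondrial complex I. It had 12.1, 10.9 and 12.3 CPM in hypomelanistic embryos, against 16.6, 16.1 and 16.5 CPM in wild-type embryos, and DESeq2 called it lower (log2 fold change −0.48 ± 0.0904, adjusted p = 0.0214 by DESeq2 and 0.463 by edgeR). *PICALM*, a clathrin assembly protein between these genes and the interval, had a log2 fold change of 0.04 ± 0.0617, and its groups overlapped. *CCDC83*, just before *PICALM*, was higher without overlap (log2 fold change 0.67) and was not called (DESeq2 adjusted p = 0.978).

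**Figure D4:**
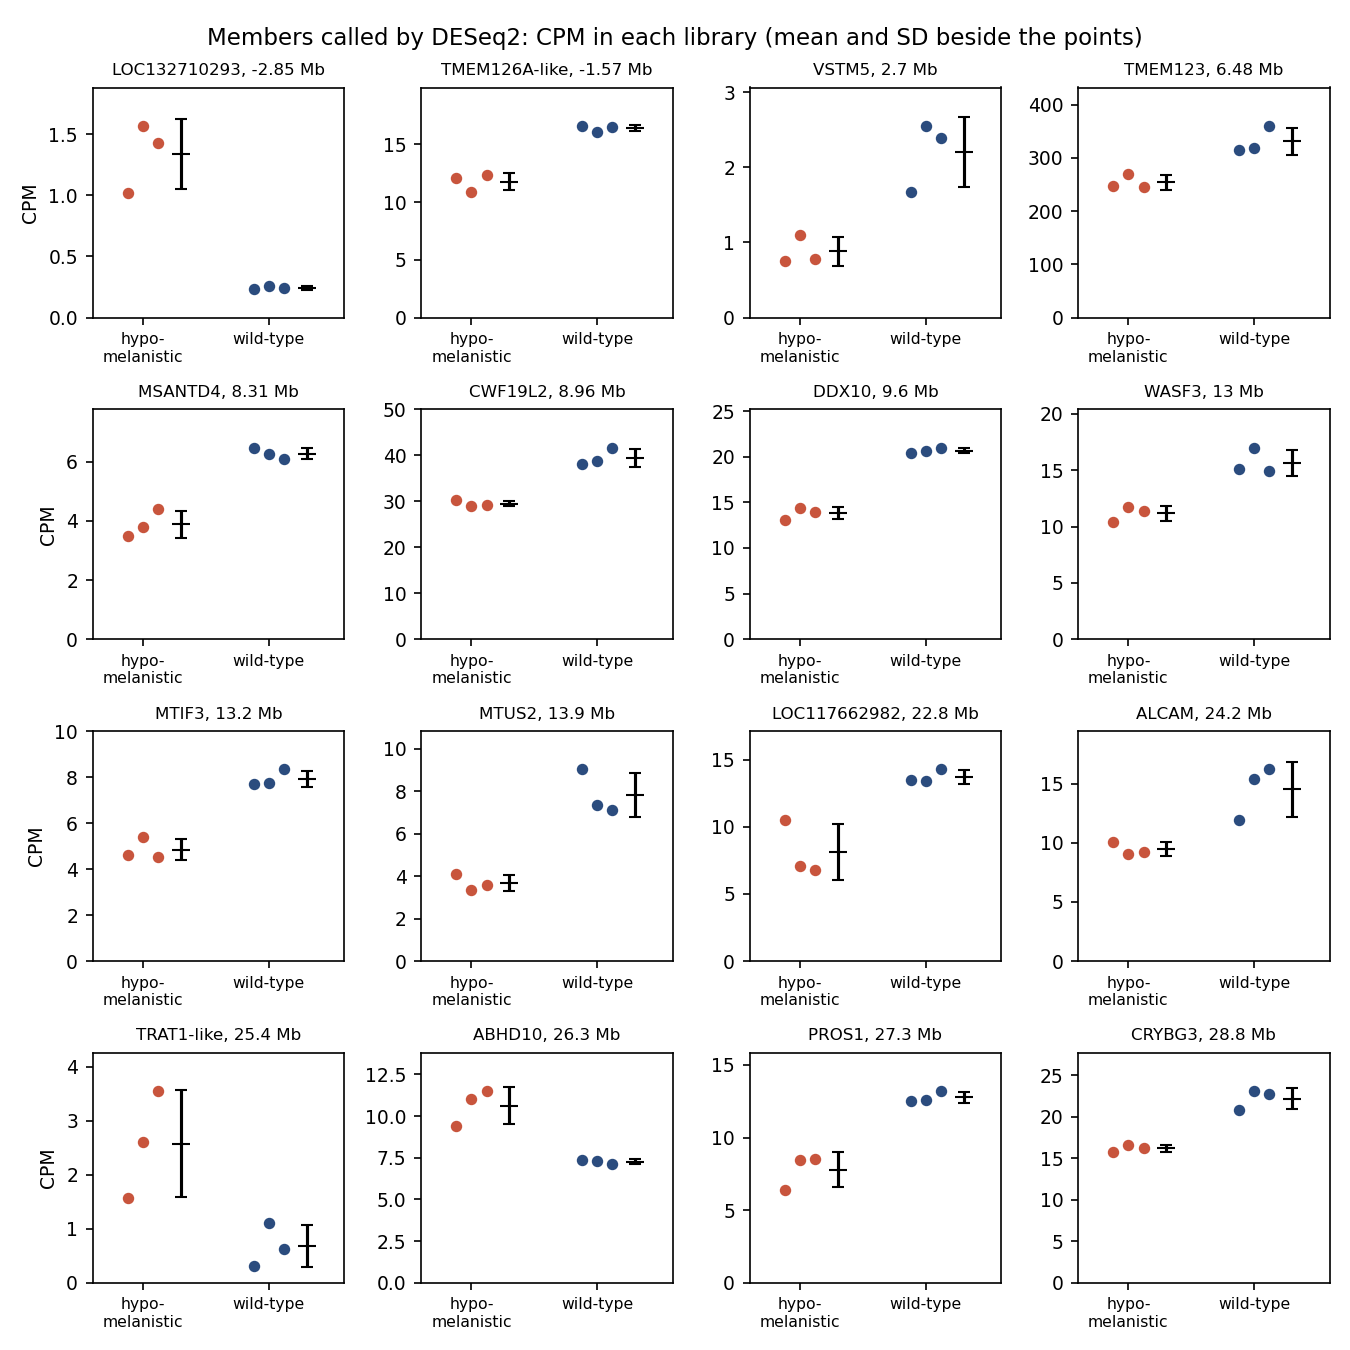
CPM in each library of the 16 members called by DESeq2, ordered along the scaffold and headed by their distance from *TYR*, with hypomelanistic embryos left of wild-type embryos. Bars give the mean and SD of 3 embryos, each vertical axis starts at 0, and the groups do not overlap in any panel.

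Downstream of *TYR*, the member called by DESeq2 that lay nearest to it was *VSTM5*, which encodes a membrane protein with an immunoglobulin domain. It had 0.758, 1.10 and 0.785 CPM in hypomelanistic embryos, against 1.67, 2.55 and 2.39 CPM in wild-type embryos (log2 fold change −1.32 ± 0.273, DESeq2 adjusted p = 0.0368). Its exons overlap those of *MED17*, a Mediator subunit on the other strand, whose log2 fold change was 0.01 ± 0.0798. The 3 nearest tested members beyond *CHORDC1* showed no separation. Their log2 fold changes were −0.11 ± 0.171 for the atypical cadherin *FAT3*, 0.37 ± 0.303 for the amino acid transporter *SLC36A4* and 0.12 ± 0.258 for *DEUP1*, which builds centrioles in multiciliated cells.

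The stretch from 5 to 10 Mb held 4 members that DESeq2 called (13.3% of 30), all lower. It called 4.37% of all tested members and 0.488% of all tested genes. *TMEM123*, a cell surface protein, had 247, 270.0 and 245 CPM in hypomelanistic embryos, against 314, 318 and 360.1 CPM in wild-type embryos (log2 fold change −0.38 ± 0.0804, DESeq2 adjusted p = 0.0221). *MSANTD4*, a protein with a Myb-like domain, had 3.50, 3.78 and 4.39 CPM in hypomelanistic embryos, against 6.48, 6.26 and 6.10 CPM in wild-type embryos (−0.69 ± 0.141, DESeq2 adjusted p = 0.0368). *CWF19L2*, related to a splicing factor, had 30.2, 29.1 and 29.2 CPM in hypomelanistic embryos, against 38.1, 38.7 and 41.7 CPM in wild-type embryos (−0.42 ± 0.0681, DESeq2 adjusted p = 0.00329). In *MSANTD4* and *CWF19L2* the gap between the groups was wider than the spread within either, whereas in *TMEM123* the spread of the wild-type embryos was about as wide as the gap.

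*DDX10*, a helicase needed for ribosome assembly, was the member of this stretch with the smallest adjusted p. It had 13.1, 14.4 and 13.9 CPM in hypomelanistic embryos, against 20.4, 20.6 and 21.0 CPM in wild-type embryos. The hypomelanistic mean was 66.7% of the wild-type mean (log2 fold change −0.58 ± 0.0793, adjusted p = 5.32e-05 by DESeq2 and 0.171 by edgeR). *ATM*, the kinase that signals DNA breaks, lies before *DDX10* with other genes between them. It had 13.5, 15.2 and 14.1 CPM in hypomelanistic embryos, against 18.1, 20.6 and 18.3 CPM in wild-type embryos. Neither tool called *ATM* (DESeq2 adjusted p = 0.119), and its exons overlap *NPAT-like*. Between *ATM* and *DDX10*, *CUNH11orf65* was higher without overlap (log2 fold change 0.50, DESeq2 adjusted p = 0.819), and *EXPH5* had a log2 fold change of −0.10. The progesterone receptor gene *PGR* had a log2 fold change of −0.44 ± 0.154, and *CUL5*, the scaffold of a ubiquitin ligase, −0.21 ± 0.0686, both without overlap. *YAP1*, the effector of Hippo signaling, had a log2 fold change of −0.23 ± 0.117 with overlapping groups, and *BIRC2*, an inhibitor of apoptosis next to it, had 0.12 ± 0.0660 and was higher in all 3 hypomelanistic embryos.

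Between 10 and 20 Mb, DESeq2 called *WASF3*, *MTIF3* and *MTUS2* (3.33% of 90 tested members, beside 0.488% of all tested genes). *MTUS2*, which encodes a protein that binds microtubules, had 4.08, 3.34 and 3.57 CPM in hypomelanistic embryos, against 9.02, 7.32 and 7.11 CPM in wild-type embryos. Its hypomelanistic mean was 46.8% of the wild-type mean, and the log2 fold change of −1.09 ± 0.156 had an adjusted p of 2.07e-05 by DESeq2 and 0.200 by edgeR. *WASF3*, a regulator of actin branching, had 10.4, 11.7 and 11.4 CPM in hypomelanistic embryos, against 15.1, 17.0 and 14.9 CPM in wild-type embryos (log2 fold change −0.49 ± 0.10, DESeq2 adjusted p = 0.0384). *SERTM1*, a small membrane protein, had a larger log2 fold change of −1.30 ± 0.315 that DESeq2 did not call (adjusted p = 0.146). *SEC61G-like*, also in this stretch, was higher without overlap (log2 fold change 0.50) and was not called (DESeq2 adjusted p = 0.983).

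*MTIF3* and *GTF3A* overlap on opposite strands at 13.2 Mb and differed in opposite directions. *MTIF3*, a translation initiation factor of mitochondria, had 4.63, 5.38 and 4.52 CPM in hypomelanistic embryos, against 7.72, 7.74 and 8.34 CPM in wild-type embryos (log2 fold change −0.71 ± 0.127, DESeq2 adjusted p = 0.00682). *GTF3A*, the transcription factor of 5S ribosomal RNA genes, had 9.15, 10.4 and 10.1 CPM in hypomelanistic embryos, against 7.58, 6.84 and 5.89 CPM in wild-type embryos (0.54 ± 0.132, DESeq2 adjusted p = 0.132). In each gene the groups did not overlap. How reads of the shared exons were divided between these genes was not tested.

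Beyond 20 Mb, 6 members were called by DESeq2, 4 lower and 2 higher. They were 3.06% of the 196 tested members there, beside 4.37% of all tested members and 0.488% of all tested genes. *PROS1* encodes protein S, a plasma cofactor that restrains clotting. It had 6.38, 8.46 and 8.5 CPM in hypomelanistic embryos, against 12.5, 12.6 and 13.2 CPM in wild-type embryos, so the hypomelanistic mean was 60.8% of the other (log2 fold change −0.72 ± 0.136, DESeq2 adjusted p = 0.00438). *ALCAM*, a cell adhesion molecule of the immunoglobulin family, had 10.1, 9.03 and 9.20 CPM in hypomelanistic embryos, against 11.9, 15.4 and 16.2 CPM in wild-type embryos (−0.62 ± 0.138, DESeq2 adjusted p = 0.0423). *CRYBG3*, a protein with crystallin-like domains, had 15.8, 16.6 and 16.2 CPM in hypomelanistic embryos, against 20.8, 23.1 and 22.7 CPM in wild-type embryos (−0.46 ± 0.0802, DESeq2 adjusted p = 0.00979). The gap between the groups was narrowest in *ALCAM*, where wild-type 1 lay nearest to the hypomelanistic embryos.

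LOC117662982, which has no entry in the newer annotation, was also lower. It had 10.5, 7.08 and 6.80 CPM in hypomelanistic embryos, against 13.5, 13.4 and 14.3 CPM in wild-type embryos (log2 fold change −0.75 ± 0.177, DESeq2 adjusted p = 0.0413). Hypomelanistic 1 was the embryo nearest to the wild-type range, and of the 6 fits without 1 library only the one without it made the call (DESeq2 adjusted p = 3.15e-08, against up to 0.515 in the others). The 2 members called higher at this distance lay 25.4 and 26.3 Mb from *TYR*. *TRAT1-like*, named after an adaptor of the T cell receptor, had 1.57, 2.61 and 3.55 CPM in hypomelanistic embryos, against 0.317, 1.10 and 0.628 CPM in wild-type embryos (log2 fold change 1.93 ± 0.481, DESeq2 adjusted p = 0.0340). *ABHD10*, a mitochondrial hydrolase, had 9.38, 11 and 11.5 CPM in hypomelanistic embryos, against 7.38, 7.29 and 7.11 CPM in wild-type embryos (0.55 ± 0.117, DESeq2 adjusted p = 0.0498). *MORC1*, close to *TRAT1-like*, also had higher values in all 3 hypomelanistic embryos (log2 fold change 1.25 ± 0.432) without a call.

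Other members far from *TYR* had large differences that no tool called. *FILIP1L*, which encodes a partner of filamin, had 21.2, 19.5 and 14.1 CPM in hypomelanistic embryos, against 29.5, 47.0 and 25.5 CPM in wild-type embryos (log2 fold change −0.90 ± 0.251, DESeq2 adjusted p = 0.0657). *IL10RB-like*, named after a subunit of the interleukin 10 receptor and 41.3 Mb from *TYR*, had 6.47, 4.22 and 4.87 CPM in hypomelanistic embryos, against 9.34, 8.77 and 7.98 CPM in wild-type embryos (−0.74 ± 0.178, DESeq2 adjusted p = 0.0657). Both were without overlap, and the wild-type embryos of *FILIP1L* were widely spread.

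The most abundant members differed little. Scaled by exon length, the ribosomal protein genes *RPL21* and *RPL24* were highest, with wild-type means of 1133 and 1115 RPKM (CPM per kilobase of exon). Their log2 fold changes were −0.03 ± 0.0995 and 0.13 ± 0.133. *HMGB1*, a chromatin protein, had a log2 fold change of 0.02 ± 0.0671, and *APP*, the amyloid precursor, −0.14 ± 0.0863, with overlapping groups. *DPT*, which encodes dermatopontin of the dermal matrix, was the exception. It had 249, 341 and 288 CPM in hypomelanistic embryos, against 364, 370.1 and 388 CPM in wild-type embryos, a log2 fold change of −0.35 ± 0.114 that no tool called (DESeq2 adjusted p = 0.520). The summed fibroblast markers, *DPT* among them, were 83747 to 96763 CPM in hypomelanistic embryos and 92760.1 to 94771 CPM in wild-type embryos. Most of this sum came from the collagen genes *COL1A1* and *COL1A2*, and the part of fibroblast content in the difference of *DPT* was not tested.

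None of the 10 role lists drawn up from genes known near *TYR* in other vertebrates held a member called by either tool. DESeq2 called 4.37% of all members and 0.488% of all tested genes, and edgeR called 0.0235% of all tested genes. The lists matched 2 to 7 members each, so shares within them are coarse. Beside them, 26.2% of all members and 6.39% of all tested genes were lower without overlap. Both tested members for ubiquitin and chaperones, *CHORDC1* and *CUL5*, were lower without overlap, with a median of −0.28. All 3 for mitochondria and metabolism (*ME3*, *ACAT1* and *FDX1*) had negative values, with a median of −0.08, and 1 did not overlap. Of the 7 for chromatin and transcription, 4 were lower and 3 higher, and *EED* and *TAF1D* (log2 fold change −0.21 ± 0.0804) were among the 3 lower without overlap. The 4 ion channel and transporter members and the 4 receptor and kinase members were split evenly between lower and higher. So were both members for Hippo and apoptosis. The 2 cell adhesion members and the 4 for DNA repair and cell cycle were split evenly as well, and 1 of the latter was lower without overlap. Of the 3 tested for endocytosis and vesicle traffic, 2 were negative, and 1 was lower without overlap. Both protease and inhibitor members were negative, and their groups overlapped.

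The scaffold of *TYR* was compared with the 61 other scaffolds that held at least 50 tested genes. Its 33.9% of members without overlap was above the range of the others, 1.28% to 28.8% with a median of 11.1%. The share that was lower in all 3 hypomelanistic embryos, 26.2%, was also above their range of 0% to 15.6%. The share with a negative log2 fold change, 68.9%, lay within the range of 9.62% to 77.5% on the others. Likewise, the 7.65% that was higher lay within the range of 0% to 25.0%, and the median log2 fold change of −0.09 lay within the range of −0.11 to 0.34. The 4.37% called by DESeq2 was exceeded on 2 scaffolds, placed on chromosomes 13 (7.06% of 170 genes) and 14 (6.92% of 260 genes). The other scaffolds were taken whole, whereas only members were counted on the scaffold of *TYR*. With its left-out genes included, DESeq2 called 23 of 380 genes (6.05%). Of the 483 tested genes of other scaffolds that the newer annotation places on chromosome 5, 20.7% did not overlap (12.6% lower and 8.07% higher). Their median was −0.02. Among the compared scaffolds placed on chromosome 5, the medians were −0.08 (96 genes) and 0.05 (67 genes). On chromosomes 1, 2, 3, 6, 7 and 8, 11.2% of 9769 genes did not overlap. The ranges describe these 6 libraries, and no test was made between scaffolds.

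**Figure D5:**
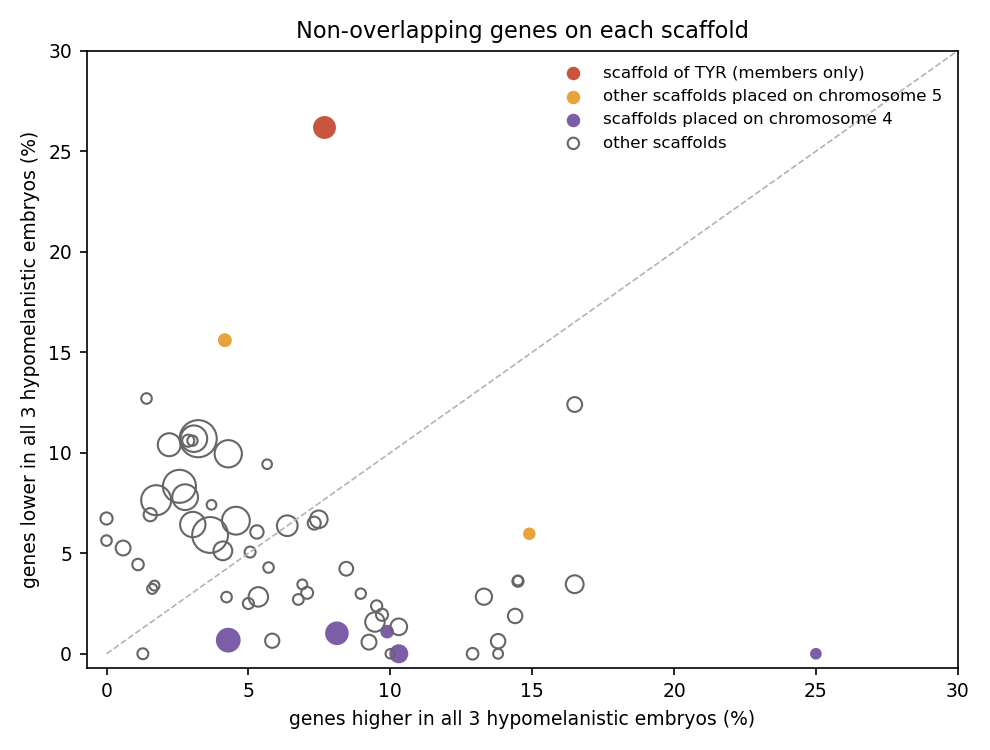
Percentage of tested genes lower (vertical axis) or higher (horizontal axis) in all 3 hypomelanistic embryos on each of 62 scaffolds with at least 50 tested genes, with point area growing with the number of genes. The members on the scaffold of *TYR* (26.2% lower) lie above all other scaffolds, of which the highest has 15.6% and is placed on chromosome 5.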

How the data were processed

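Poly(A) RNA of dorsal skin was sequenced from 6 embryos, 1 library each. The values deposited by the authors are raw counts for each gene, without normalization. According to the study and the submitters' notes, reads of stranded libraries were aligned to the CU assembly (STAR 2.7.10b). Pairs with a unique position were then counted by featureCounts (Subread 2.0.6). Of 25735 lines, 4 were broken (*DST* and *MACF1*) and were left out.

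Genes were kept by filterByExpr (17025 of 25731) and tested with the edgeR 4.0.16 quasi-likelihood test in R 4.3.3 with TMM normalization, no covariate and a threshold of 0.05 after Benjamini-Hochberg adjustment over every tested gene. The common biological coefficient of variation was 0.17. Log2 fold changes and their SE come from edgeR, also where a DESeq2 adjusted p stands beside them. Each SE was derived as the absolute log2 fold change divided by the square root of the F value of the edgeR test. Total counts were 29958657 to 38541392 per library. No libraries were duplicates, since the chi-square of each pair was 23.3 to 76.3 times its degrees of freedom. The scripts were tested on simulated data. Distance is the gap between a gene's span and that of *TYR*. Groups do not overlap where all 3 CPM of one genotype lie on one side of the others, which a random order of 3 against 3 values reaches at an exact p of 0.1 at best. Names and chromosomes came from a newer assembly (ASM5975653v1).

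Alternatives were DESeq2 1.42.0 (Wald test) and its size factors, TMM without the scaffold, no filter on low counts, limma-voom 3.58.1, leaving out ribosomal RNA genes, a replicate block, the first principal component as a covariate, distance counted in genes, and leaving out each library. Added after seeing the data were a minimum of 10 CPM, leaving out members with overlapping exons, using all genes of the scaffold, and DESeq2 without each library. The members, the lists and the rule for named genes were chosen with earlier results of these data known. The rule took members called by either tool, interval members, the 5 nearest tested members on each side of *TYR*, up to 8 per direction with the largest change among those without overlap and with at least 1 CPM, up to 3 per list by edgeR p, and the 5 most abundant (58 genes in all). Role groups in the closing section, *MED17* and *SYDE1-like* were chosen after their values were seen.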

Additional observations from a re-analysis of the deposited data

How the results depend on the processing

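The number of called members, 0 by edgeR, stayed at 0 with DESeq2 size factors, TMM without the scaffold, no filter, limma-voom, ribosomal RNA genes left out, the first principal component as a covariate and the replicate block. DESeq2 called 16. Leaving out 1 library gave 0 to 1 calls by edgeR and 4 to 26 by DESeq2 (26, 9 and 5 without hypomelanistic 1, 2 and 3, and 8, 4 and 5 without wild-type 1, 2 and 3), and the cause was not tested. The 1 edgeR call, without hypomelanistic 1, was *SYDE1-like* (lowest adjusted p 0.0499), with 26.6, 14.4 and 15.2 CPM in hypomelanistic embryos against 26.8, 29.0 and 26.7 CPM in wild-type embryos. The excess of lower over higher members was 138, 88 with the principal component and 108 to 154 without 1 library. The median absolute log2 fold change, 0.16, was 0.23 both without the filter and by DESeq2, which keep genes of lower counts, and 0.15 to 0.19 without 1 library. Members without overlap, 124, were 141 to 175 without 1 library, where fewer samples have to be separate, and 77 at a minimum of 10 CPM, which leaves 202 members.

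Within 2 Mb the median of −0.10 was −0.02 without the filter and by DESeq2, 0.00 (reversed) with the principal component, −0.05 with distance counted in genes and −0.11 to 0.02 without 1 library. At 2 to 5 Mb it was −0.02, −0.07 without the filter and by DESeq2, and −0.08 to −0.02 without 1 library. At 5 to 10 Mb it was −0.20, −0.15 without the filter, by DESeq2 and with the principal component, and −0.22 to −0.15 without 1 library. At 10 to 20 Mb it was −0.11 to −0.05 and at 20 Mb or more −0.12 to −0.07 without 1 library.

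The replicate numbers are not stated to pair embryos, and deviations of same-numbered libraries had correlations of −0.0842, 0.113 and −0.00586, with 2 of 6 libraries correlating best with their own number. With the replicate block, the excess of lower members was 140, the median −0.09 and the number called 0.

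Among named members, small differences changed sign. With the principal component they were 0.03 for *HIKESHI*, 0.14 for *CEP57*, −0.19 for *GUCY1A2*, 0.00 for *RPL21* and −0.00 for *HMGB1*. Without hypomelanistic 1 they were 0.02 for *HIKESHI*, 0.03 for *CEP57*, −0.07 for *GUCY1A2*, 0.00 for *ACAT1* and 0.02 for *RPL21*. Without hypomelanistic 3 they were −0.12 for *NOX4* and −0.00 for *HMGB1* and *RPL24*. Without wild-type 1 it was 0.04 for *RPL21*, and without wild-type 2 they were 0.09 for *FAT3*, −0.04 for *DEUP1* and −0.00 for *HMGB1*. Over all libraries left out in turn, the ranges were −0.15 to 0.02 for *HIKESHI*, −0.12 to 0.32 for *NOX4*, −0.23 to 0.09 for *FAT3*, −0.04 to 0.24 for *DEUP1*, −0.47 to 0.03 for *CEP57*, −0.07 to 0.88 for *GUCY1A2*, −0.09 to 0.00 for *ACAT1*, −0.10 to 0.04 for *RPL21*, −0.00 to 0.04 for *HMGB1* and −0.00 to 0.24 for *RPL24*. With 3 embryos a group, differences near the spread between embryos were not resolved.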

Other observations

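Other genes along the scaffold fall into role groups that were put together from the members' names after their values were seen, and that carry no test. They are set beside all members, of which 68.9% were negative with a median of −0.09 and 26.2% were lower and 7.65% higher without overlap, and beside all tested genes, of which 6.39% were lower and 5.77% higher without overlap. Nothing particular to a group is read from them. Of 19 members of mitochondria, 15 had negative log2 fold changes, with a median of −0.11, and 7 (36.8%) were lower and 1 higher without overlap. Besides *TMEM126A-like*, *ME3* and *MTIF3*, the lower ones included *MRPL39*, a mitochondrial ribosomal protein, with 21.9, 22.1 and 22.6 CPM in hypomelanistic embryos against 24.8, 26.9 and 26.7 CPM in wild-type embryos, and *TIMMDC1*, an assembly factor of complex I, with 15.1, 15.1 and 15.4 CPM in hypomelanistic embryos against 17.7, 18.5 and 16.8 CPM in wild-type embryos. *ABHD10* was the one that was higher. Of 10 matrix and secreted proteins, 8 were negative with a median of −0.21, and 4 (40.0%; *PDGFD*, *DPT*, *ABI3BP* and *PROS1*) were lower without overlap. *PDGFD*, a platelet-derived growth factor, had 80.8, 79.6 and 83.1 CPM in hypomelanistic embryos against 85.1, 97.0 and 99.4 CPM in wild-type embryos.

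Of 12 members for genome maintenance and centromeres, 9 were negative with a median of −0.10, and 5 (41.7%) were lower without overlap. Of 14 for ubiquitin and SUMO, 10 were negative with a median of −0.11, and 4 (28.6%) were lower and 1 higher without overlap. All 4 receptors of interferons and interleukins near 41.3 Mb were negative with a median of −0.31, and *IFNAR2* (8.92, 6.58 and 5.28 CPM in hypomelanistic embryos against 9.31, 11.1 and 9.29 CPM in wild-type embryos) and *IL10RB-like* did not overlap. *IFNAR1* and *IFNGR2* beside them overlapped, with log2 fold changes of −0.11 ± 0.0809 and −0.02 ± 0.0670. The 15 tested members of cilia and centrosomes had 7 negative and 8 positive values, a median of 0.01, and 3 lower and 3 higher without overlap. Of 20 adhesion molecules of the immunoglobulin family, 12 were negative with a median of −0.06, and 5 (25.0%) were lower and 2 higher without overlap. *LSAMP*, one of the 2 higher, had 17.0, 17.5 and 16.1 CPM in hypomelanistic embryos against 10.8, 13.6 and 13.2 CPM in wild-type embryos. No edgeR adjusted p in these groups was below 0.05.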
